A study of Mus musculus with 12 samples.

Results

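The Hedgehog pathway genes described here are 9 genes chosen by symbol: the ligand genes Shh, Ihh and Dhh, the receptor genes Ptch1 and Smo with the ligand-binding inhibitor Hhip, and the transcription factor genes Gli1, Gli2 and Gli3. All 9 were found among the 12098 genes listed in at least 1 library of the series. Reduced representation bisulfite sequencing, in which DNA is cut with MspI and treated so that unmethylated cytosine is read as thymine, gave the promoter methylation of colon epithelial cells taken from C57BL/6 mice. Induced mice (n = 3) drank 0.5 g/l doxycycline for 3 months to induce the DNA methyltransferase Dnmt3b, and control mice (n = 3) had regular water. Fragments of 40 to 120 nt (the short fraction) and of 120 to 220 nt (the long fraction) were sequenced separately for every mouse, so there were 12 libraries in all. The fractions hold different MspI fragments, so the values of a gene in them need not be of the same CpGs. The sources used here do not give the genotype of either group, the construct that carries Dnmt3b, the cells in which it acts, age or sex, and the drug and the induction cannot be told apart, since only induced mice received doxycycline.

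Hedgehog ligands are secreted proteins that bind Patched receptors, which otherwise hold back the membrane protein Smoothened. Once released, Smoothened acts through the primary cilium so that the GLI zinc finger factors turn on target genes instead of repressing them. In the intestine the signal runs mainly from the epithelium, where Ihh is the chief ligand of differentiated colon cells, to the mesenchyme beneath, where Ptch1, Gli1 and Hhip are themselves targets. The level of a gene is the mean CpG methylation of its listed promoter in percent. It averages over all cells and both alleles of a sample, so a middle level does not tell full methylation in some cells from partial methylation in all.

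Some of the 9 genes went from nearly unmethylated to mostly methylated, Gli1 reached lower levels, and Shh varied between induced mice without a detectable change. Ihh and Ptch1 stayed near 0. Smo stayed near 0 with a small rise among short fragments, and its groups overlapped among long ones. Of the 8 genes listed in all 6 short-fragment libraries, 5 rose (limma, adjusted p under 0.05), where 27.6% of all 10027 genes tested rose and 0.0798% fell. Gli2, Gli3, Hhip and Dhh rose by 61.0 to 73.1 percentage points, Smo rose by 0.950 points, and Shh, Ihh and Ptch1 did not pass. Of the 5 genes listed in all 6 long-fragment libraries, Gli1, Gli2 and Gli3 rose, where 23.2% of 6127 genes rose and 0.0163% fell, and Ihh and Ptch1 did not pass. The median change was 38.2 points over the 8 short-fraction genes against 0.500 over all genes, and 38.8 points over the 5 long-fraction genes against 0.943. The induced range lay wholly above the control range for 6 of the 8 genes in the short fraction and 3 of the 5 in the long fraction, as it did for 39.5% and 38.2% of all genes, and wholly below it for 0, against 0.908% and 0.277%. No member was lower at an unadjusted p under 0.05 either. Each library was also shifted by its median difference from the mean library. Then 2844 genes rose and 2368 fell in the short fraction, and 1628 rose and 1938 fell in the long fraction. The same members rose, while Ptch1 in the short fraction (-0.549 points, limma adjusted p = 0.0351) and Ihh in the long fraction (-0.508 points, adjusted p = 0.00391) passed as lower. In the long fraction the values subtracted were -0.417 to -0.357 points in control and 0.0800 to 0.150 points in induced libraries. Long-fragment Ihh was at 0% to 0.02% before this, so its difference is that of the shift and not a measured fall. Any promoter near 0 in both groups moves in this way.

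**Figure D1:**
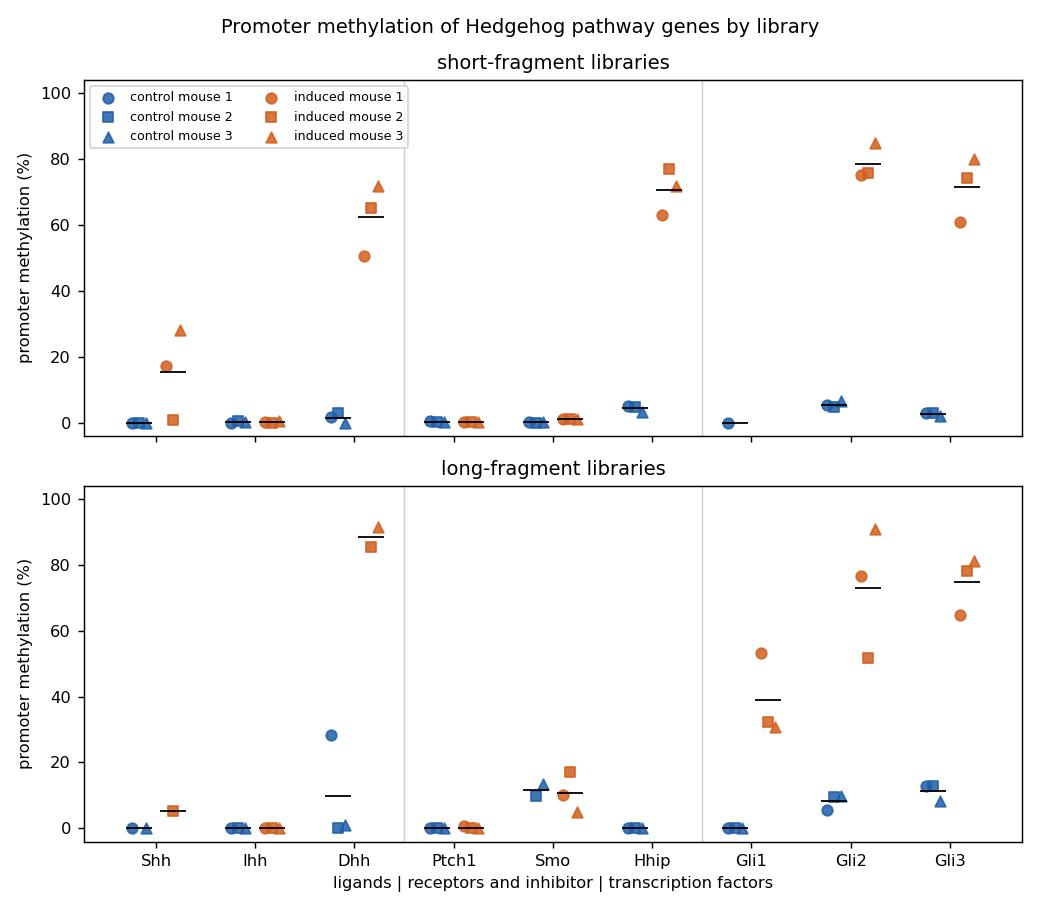
Promoter methylation in percent (y axis) of the 9 Hedgehog pathway genes (x axis) in short-fragment (top) and long-fragment (bottom) libraries; each point is 1 mouse, marked by shape, control in blue and induced in orange, and black lines are means over the listed values. Induced mice lie at 50.6% to 84.96% for Dhh, Hhip, Gli2 and Gli3 among short fragments, while Ihh and Ptch1 lie under 1% in every library.

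The sequences below let promoters of genes that rose be set beside promoters of genes that stayed low. They are the 250 bases before a RefSeq start of the gene (GRCm38.p6, written 5′ to 3′ on the gene's strand), with every CpG, the site of methylation, in capitals. Gli3 (chr13:15463473-15463722, plus strand), Hhip (chr8:80058009-80058258, minus strand) and Dhh (chr15:98898541-98898790, minus strand) gained methylation, and Ptch1 (chr13:63565736-63565985, minus strand) and Ihh (chr1:74951673-74951922, minus strand) did not.
Gli3: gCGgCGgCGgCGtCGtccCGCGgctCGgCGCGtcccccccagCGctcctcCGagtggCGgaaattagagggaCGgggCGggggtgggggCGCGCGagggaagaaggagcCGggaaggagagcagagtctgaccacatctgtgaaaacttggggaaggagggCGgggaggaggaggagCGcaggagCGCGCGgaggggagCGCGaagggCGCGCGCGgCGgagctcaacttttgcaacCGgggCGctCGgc
Hhip: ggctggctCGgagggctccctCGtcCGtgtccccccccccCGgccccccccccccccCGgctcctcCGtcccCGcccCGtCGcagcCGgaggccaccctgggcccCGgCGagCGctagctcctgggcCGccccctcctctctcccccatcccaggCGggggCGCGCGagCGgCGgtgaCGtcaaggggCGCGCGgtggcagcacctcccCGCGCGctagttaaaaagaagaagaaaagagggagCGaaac
Dhh: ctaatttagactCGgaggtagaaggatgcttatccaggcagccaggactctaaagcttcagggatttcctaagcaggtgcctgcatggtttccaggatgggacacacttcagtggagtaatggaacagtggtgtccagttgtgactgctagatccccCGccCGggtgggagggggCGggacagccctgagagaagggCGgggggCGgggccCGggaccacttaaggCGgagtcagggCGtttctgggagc
Ptch1: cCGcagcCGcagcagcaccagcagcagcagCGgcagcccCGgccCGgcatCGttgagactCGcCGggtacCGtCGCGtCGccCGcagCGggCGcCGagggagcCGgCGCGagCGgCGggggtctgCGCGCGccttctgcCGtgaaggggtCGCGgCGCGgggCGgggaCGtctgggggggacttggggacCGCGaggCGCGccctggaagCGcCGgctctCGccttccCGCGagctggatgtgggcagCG
Ihh: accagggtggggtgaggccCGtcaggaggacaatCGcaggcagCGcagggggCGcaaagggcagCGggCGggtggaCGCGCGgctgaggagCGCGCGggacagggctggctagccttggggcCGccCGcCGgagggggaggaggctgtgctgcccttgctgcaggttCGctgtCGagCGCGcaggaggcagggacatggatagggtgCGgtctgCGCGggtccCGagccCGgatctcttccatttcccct
The Dhh window has the fewest CpGs of these, 9, against a median of 6 over all windows of this length in the RefSeq table. Hhip has 28 CpGs and Gli3 34, while Ihh, which stayed low, has 24 and Ptch1, which also stayed low, has 41. The windows of Gli2 and Smo, not printed, have 22 and 15. The MspI site CCGG, which reads the same on both strands and includes a CpG, occurs 4 times in the Hhip window, 5 times in that of Ptch1, 2 times each in those of Gli3, Dhh and Ihh, and 1 time each in those of Gli2 and Smo. Of all 32851 such windows, 92.1% hold a CG and 47.1% a CCGG. Windows were at hand for 7 of the 9 genes, and CpG content was not tested over the set. The authors' promoter window is not stated in the labels or files, and the window of Ptch1 lies 7725 bases inside the outermost start of the gene and that of Gli2 786 bases inside it, so the measured CpGs need not be those shown.

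Among the ligand genes, Dhh rose, Ihh did not change detectably and Shh varied between induced mice. Dhh (Gene ID 13363), the ligand best known from testis and nerve sheaths and whose window above is poorest in CpGs, was at 1.67%, 3.01% and 0% in control mice 1, 2 and 3 and at 50.6%, 65.2% and 71.9% in induced mice 1, 2 and 3 among short fragments. The groups did not overlap, and the means were 1.56% ± 1.51 and 62.5% ± 10.9 (SD, n = 3), a rise of 61.0 points (SE 5.97, limma adjusted p = 0.00208). Among long fragments Dhh was at 28.3%, 0.09% and 0.99% in control mice 1, 2 and 3, and at 85.5% and 91.5% in induced mice 2 and 3. Control mouse 1 stood apart there, and induced mouse 1 had no listed value. Of the 6127 genes in all 6 long-fragment libraries, 4 had control mouse 1 over 20% with both other control mice under 2%, and mice 2 and 3 stood apart in this way at 4 and 3 genes. In a fit that admits genes listed in 2 libraries of each group, long-fragment Dhh rose by 78.7 points (limma adjusted p = 0.0243, 3 control and 2 induced libraries).

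Ihh (16147), the ligand gene that colon epithelium is known to use, was at 0.06%, 0.47% and 0.08% in control mice and 0.13%, 0.03% and 0.44% in induced mice 1, 2 and 3 among short fragments. The groups overlapped, and the difference was -0.00333 points with a 95% interval of -0.473 to 0.466 (limma adjusted p = 1). Among long fragments Ihh was at 0%, 0% and 0.02% in control mice and 0% in all 3 induced mice, a difference of -0.00667 points with an interval of -0.109 to 0.0960 (adjusted p = 0.958). Any rise at the listed Ihh promoter was therefore under 1 point at these intervals, in samples where Dhh gained 61.0.

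Shh (20423), the ligand best known from embryonic patterning, was at 0%, 0.04% and 0% in control mice and at 17.2%, 0.82% and 28.1% in induced mice 1, 2 and 3 among short fragments. The groups did not overlap, but induced mouse 2 was far below the other induced mice. The difference of 15.3 points (SE 7.47, 95% interval -4.53 to 35.2) did not pass (limma adjusted p = 0.264). Without induced mouse 2 it was 22.6 points and passed (adjusted p = 0.0261). Among long fragments Shh was at 0% in control mice 1 and 3 and at 5.30% in induced mouse 2, with no other listed value and no test.

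The receptor genes stayed low and the inhibitor gene rose. Ptch1 (19206), the receptor that restrains Smoothened, was at 0.57%, 0.25% and 0.09% in control mice and at 0.10%, 0.22% and 0.13% in induced mice among short fragments. The groups overlapped, with a difference of -0.153 points (95% interval -0.536 to 0.229, limma adjusted p = 0.568). The long-fragment values were 0.08%, 0.03% and 0% in control mice and 0.64%, 0.05% and 0% in induced mice, a difference of 0.193 points (95% interval -0.342 to 0.728, adjusted p = 0.591).

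Smo (319757), which encodes the signal transducer Smoothened, was at 0.19%, 0% and 0.17% in control mice and at 1.10%, 1.03% and 1.08% in induced mice among short fragments. The groups did not overlap, and the rise of 0.950 points (SE 0.0735) passed with SDs of 0.104 and 0.0361 points within the groups (limma adjusted p = 0.00104); over all genes the median change was 0.500 points. Among long fragments the levels were higher in both groups and overlapped, at 9.87% and 13.5% in control mice 2 and 3 and at 10%, 17.2% and 5.07% in induced mice 1, 2 and 3. The fit that admits genes listed in 2 libraries of each group gave a difference of -0.915 points there (95% interval -14.1 to 12.3, adjusted p = 0.965). In each of the 5 mice with both values the long-fragment level of Smo was above the short-fragment level, by 3.99 to 16.2 points.

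Hhip (15245), a membrane protein that binds and removes Hedgehog ligands, was at 5.18%, 4.87% and 3.30% in control mice and at 63.1%, 76.8% and 71.9% in induced mice among short fragments. The groups were far apart, with means of 4.45% ± 1.01 and 70.6% ± 6.93 (SD, n = 3) and a rise of 66.2 points (SE 3.81, limma adjusted p = 0.000536). Among long fragments Hhip was at 0.17%, 0% and 0% in control mice, with no listed value in induced mice, so no comparison was made.

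All 3 GLI genes rose wherever they could be tested. Gli2 (14633), the main activator of the pathway, was at 5.33%, 4.69% and 6.47% in control mice and at 75.1%, 75.7% and 84.96% in induced mice among short fragments. The groups did not overlap, and the rise of 73.1 points (SE 3.05, limma adjusted p = 0.000283) was larger than that of 98.4% of the genes tested. Among long fragments Gli2 was at 5.68%, 9.52% and 9.71% in control mice and at 76.7%, 51.6% and 90.8% in induced mice, a rise of 64.7 points (SE 10.98, adjusted p = 0.0173). Gli2 no longer passed among long fragments when control mouse 1, 2 or 3 was left out (limma adjusted p = 0.0779, 0.0735 and 0.0737), nor when induced mouse 1 was (adjusted p = 0.0585), with changes of 62.9 to 65.4 points. Over all genes, too, long-fragment calls fell from 1422 to 905 without control mouse 1 and to 885 without control mouse 2.

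Gli3 (14634), the main repressor of the pathway, was at 2.83%, 3.09% and 1.97% in control mice and at 60.8%, 74.2% and 80.0% in induced mice among short fragments. Its means were 2.63% ± 0.586 and 71.7% ± 9.87 (SD, n = 3), a rise of 69.0 points without overlap (SE 5.38, limma adjusted p = 0.00106). The long-fragment levels were 13%, 13.01% and 8.33% in control mice and 64.8%, 78.1% and 81.0% in induced mice, a rise of 63.2 points (SE 4.96, adjusted p = 0.00202). Gli3 kept its call in both fractions whichever library was left out. In control mice its long-fragment level was above its short-fragment level in all 3 animals, by 6.36 to 10.2 points.

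Gli1 (14632), a target of the pathway that amplifies its output, was listed in 1 short-fragment library, at 0% in control mouse 1, and so could be compared only among long fragments. There it was at 0% in all 3 control mice and at 53.3%, 32.4% and 30.8% in induced mice 1, 2 and 3. The groups did not overlap, and the rise of 38.8 points (SE 6.88, limma adjusted p = 0.0194) was smaller than those of Gli2 and Gli3 in the same libraries, a difference between genes that was not tested. Leaving out control mouse 1, 2 or 3 ended the call of Gli1 (limma adjusted p = 0.0823, 0.0815 and 0.0821), although the change stayed at 38.8 points each time. The value left out was 0% each time, and calls over all genes fell as given for Gli2.

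**Figure D2:**
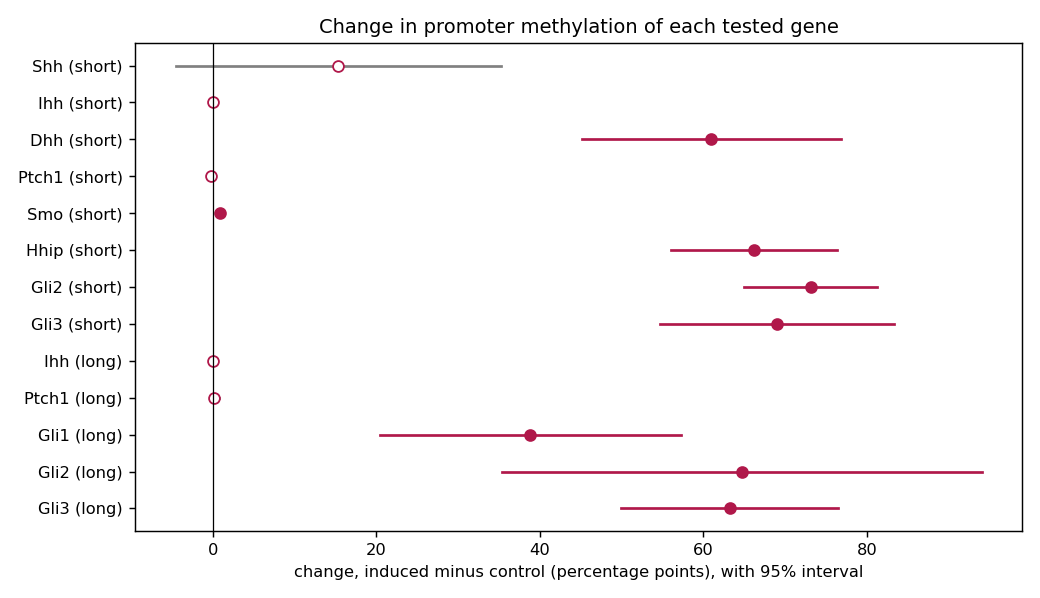
Change in promoter methylation, induced minus control, in percentage points (x axis) for each Hedgehog pathway gene listed in all 6 libraries of a fraction (y axis); bars are 95% intervals from limma and filled points have an adjusted p under 0.05. Gli2 among short fragments changed most, by 73.1 points, and the points of Ihh and Ptch1 lie within 0.2 points of 0.

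The change could be compared between the fractions for the 4 genes with a value in all 12 libraries. It did not differ detectably for any of them (limma interaction with mouse as a random block), where 4.71% of 5309 genes did. The long-fraction change minus the short-fraction change was -8.37 points for Gli2 (95% interval -33.6 to 16.9, adjusted p = 0.767) and -5.83 points for Gli3 (95% interval -21.8 to 10.1, adjusted p = 0.750). For Ihh it was -0.00333 points (95% interval -0.451 to 0.445, adjusted p = 0.996) and for Ptch1 0.347 points (95% interval -0.238 to 0.931, adjusted p = 0.649). At an unadjusted p under 0.05 the count was also 0 of 4.

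Induced mouse 1 had the lowest level of the induced mice at Gli2, Gli3, Hhip and Dhh among short fragments, and induced mouse 3 the highest at all of these but Hhip. Over all 10027 genes the induced mice 1, 2 and 3 had mean levels of 16.3%, 16.9% and 18.4%, against 3.81% to 4.39% in control mice. Long-fragment means over 6127 genes were 18.3%, 18.7% and 21.2%, against 4.78% to 5.46%. Other members had other orders: induced mouse 2 was lowest at short-fragment Shh and long-fragment Gli2, and induced mouse 1 was highest at long-fragment Gli1. The part of these differences between mice in the gene results was not tested.

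**Figure D3:**
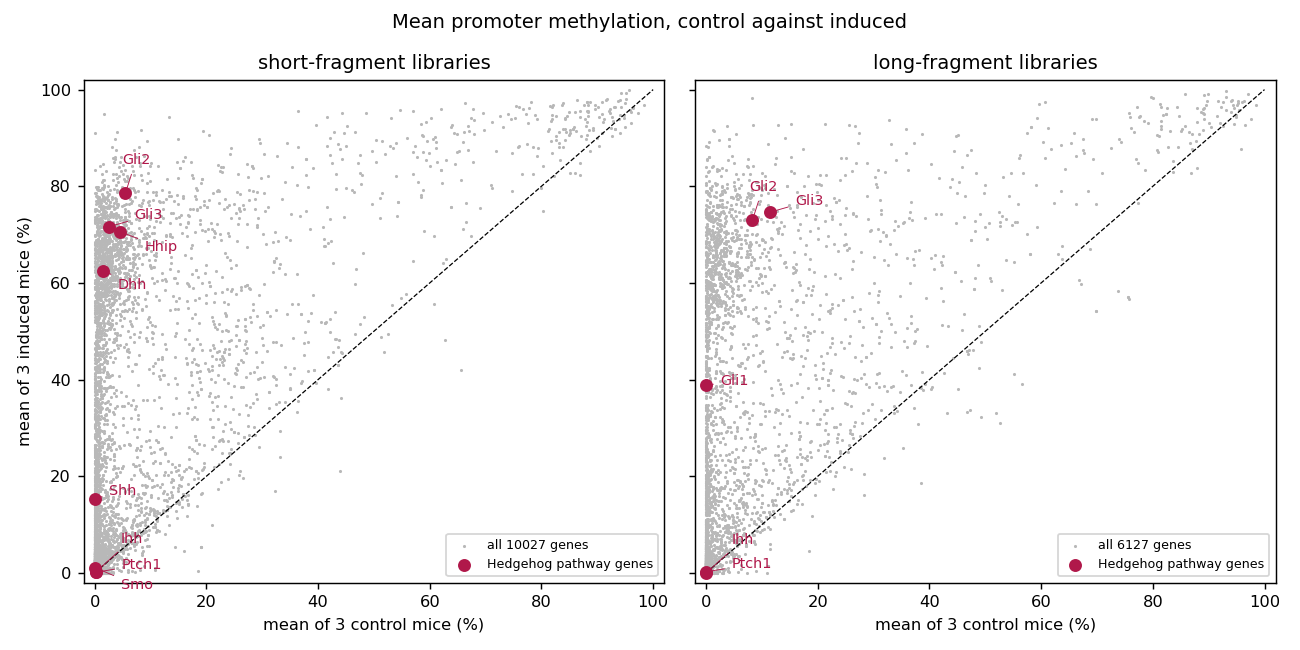
Mean promoter methylation of 3 control mice (x axis) against 3 induced mice (y axis), in percent, for all genes tested (grey) and the Hedgehog pathway genes (red), short fragments on the left and long fragments on the right; the dashed line marks equal levels. Gli2, Gli3, Hhip and Dhh lie at induced means of 62.5% to 78.6% on the left, while Ihh, Ptch1 and Smo have induced means of 0.200%, 0.150% and 1.07%.

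Genes with the pattern most like a Hedgehog gene were sought among the 5309 genes with values in all 12 libraries, by the root mean square difference in level. The nearest to Gli2 were Lhx1 (4.72 points), Foxe1 (5.18) and St6gal2 (5.42), and the nearest to Gli3 were Lrtm2 (3.81), Npas1 (4.16) and Mn1 (4.89). Lhx1 and Foxe1 encode developmental transcription factors. Within 10 points there were 154 genes for Gli2 and 328 for Gli3. Ihh had 2197 genes within 1 point, Plk2, Abtb1 and Hnrnpa3 nearest, and Ptch1 had 2217, Dut, Ctdspl and Atn1 nearest, since many promoters lie near 0 in every library.

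The other genes of the pathway were taken from a list of 95 names, of which 85 genes matched. In the short fraction 33 of 77 tested genes rose and 0 fell (limma; 1, Kif3b, was lower at an unadjusted p under 0.05), against 27.6% of all genes that rose, and in the long fraction 26 of 53 rose and 0 fell (0 were lower at an unadjusted p under 0.05), against 23.2%. Their median change was 8.29 and 27.7 points. By role, 9 of 13 genes of ligand release and reception, 4 of 32 genes of cytoplasmic and ciliary transduction and 20 of 32 genes known to respond to Hedgehog in some tissue rose in the short fraction. In the long fraction these counts were 4 of 8, 3 of 17 and 19 of 28, and without control mouse 1 or 3 the total fell from 26 to 16. The shares were not tested against each other.

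Among genes of ligand release and reception Gas1, a coreceptor that helps ligands bind Patched, rose from 1.22% to 74.1% among short fragments (limma adjusted p = 0.000743) and from 0.273% to 78.5% among long ones (adjusted p = 0.000413). Lrp2, an endocytic coreceptor, went from 2.13% to 58.7% and from 3.60% to 68.7%. The secreted Scube proteins carry lipid-bearing ligand away from the cell. Scube1, Scube2 and Scube3 rose to 61.8%, 64.0% and 50.6% among short fragments, and Scube1 and Scube3 to 68.6% and 62.2% among long fragments. Scube1 did not pass among long fragments without control mouse 1 (limma adjusted p = 0.0504). Ptchd2, a relative of the ligand-releasing Dispatched proteins, rose from 5.39% to 61.3%, the glypican gene Gpc6 from 1.65% to 29.0% and Hhatl from 51.9% to 86.6% in the short fraction. The coreceptor gene Boc, named after its values were seen, was at 0% and 0.127% and did not pass (limma adjusted p = 0.546).

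Many transduction genes, like many genes in all, had promoters near 0 in both groups. Mean levels were under 5% in control and induced mice for 26 of 32 short-fraction and 11 of 17 long-fraction genes, against 63.9% and 57.6% of all genes. Sufu, the cytoplasmic inhibitor of GLI proteins, likewise named after its values were seen, was at 0.183% and 0.0567% in the short fraction and at 0.0167% and 0.400% in the other. Kif7, a ciliary kinesin that regulates GLI proteins, rose from 0.647% ± 0.419 to 43.8% ± 7.25 in the short fraction (SD, n = 3, limma adjusted p = 0.00169). Evc and Evc2, partners of Smoothened in the cilium, had identical values in every library and are 1 measurement counted as 2 genes above. It rose from 1.87% to 43.95% among short fragments and from 4.81% to 55.5% among long ones, where it did not pass when control mouse 1 or 3 was left out (limma adjusted p = 0.0541 and 0.0546). Dync2h1, the motor of retrograde transport in cilia, rose from 0.463% to 89.2% in the long fraction (adjusted p = 0.00577). Its induced values there were 67.6%, 100% and 100%, and the read depth behind them is unknown. With a replicate block on the mouse number it did not pass (limma adjusted p = 0.0525). Prkacb, a catalytic subunit of protein kinase A, rose from 0.05% to 1.32% in the short fraction and lost its call without control mouse 1, 2 or 3 (limma adjusted p = 0.0527, 0.0572 and 0.0568). Csnk1g2 in the short fraction, at 0% and 11.4% (limma adjusted p = 0.454), and Arrb2 in the long fraction, at 0% and 5.10% (limma adjusted p = 0.584), had the next largest differences and did not pass.

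The list of genes known to respond to Hedgehog somewhere in the body holds many developmental transcription factor genes. Those with the largest rises are of this kind, which the make-up of the list favours, and the shares were not compared. In the short fraction Foxe1, Tbx2, Nkx2-3 and Nkx6-1 rose by 78.7, 77.7, 76.7 and 72.7 points, and in the long fraction Nkx6-1, Foxc2, Nkx3-2 and Foxf2 rose by 76.0, 74.2, 72.9 and 72.9 points. Foxl1 and Foxf1a, forkhead factor genes that answer to Hedgehog in gut mesenchyme and were chosen after their values were seen, went from 1.43% to 62.7% and from 0.973% to 31.8% in the short fraction. In the long fraction they went from 2.57% to 39.7% and from 2.48% to 41.8%, and Foxl1 lost its call there without control mouse 2 or 3 (limma adjusted p = 0.0633 and 0.0631). The cell cycle and survival genes of the list that follow, also chosen after their values were seen, were low in both groups: Ccnd1 was at 0.0333% and 0.347%, Ccnd2 at 0% and 0.867% and Bcl2 at 0.0300% and 0.717% in the short fraction, none past the threshold (limma adjusted p = 0.174, 0.568 and 0.152).

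**Figure D4:**
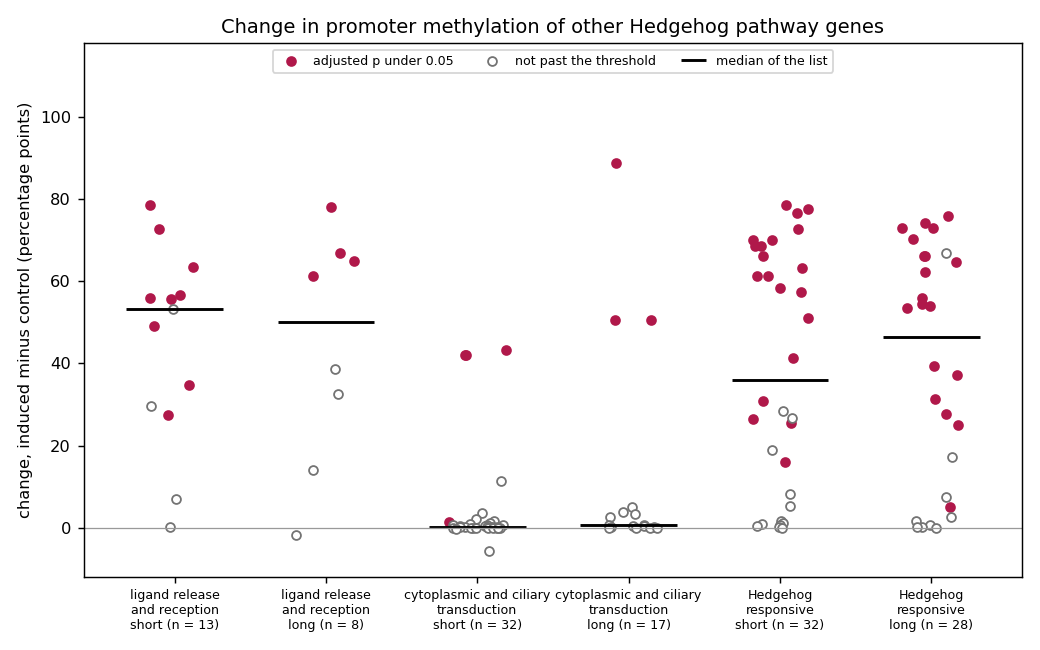
Change in promoter methylation, induced minus control, in percentage points (y axis) for the other Hedgehog pathway genes by list and fraction (x axis); each point is 1 gene, filled where the limma adjusted p was under 0.05, and lines are list medians. The medians of the transduction genes are 0.245 and 0.690 points, against 53.4 and 50.04 points for ligand release and reception.

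The labelled cell type was looked at through promoters of marker genes, which do not count cells. Of 20 names for colon epithelium 7 genes were tested among short and 9 among long fragments. All 7 and 8 of the 9 had means under 5% in both groups, and 0 passed, also at an unadjusted p under 0.05; Krt18 was at 22.8% and 30.2% in the long fraction. Of 20 names for mesenchyme, endothelium and blood, 4 and 3 genes were tested, with control means of 0% to 13.5%, and 3 of 4 and 3 of 3 rose. These were Des, Pdgfra and Vim in both fractions and Kdr in the short fraction only, so none of the blood names was tested. Over all genes 27.6% and 23.2% rose. Vim rose from 0.567% to 32.5% and Kdr from 1.99% to 65.4% in the short fraction. Pdgfra, at 0.473% and 13.5% there, did not pass (limma adjusted p = 0.417). The part of any other cell type in the Hedgehog gene results was not tested.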

How the data were processed

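The authors deposited 1 table per library with the mean CpG methylation fraction (0 to 1) per gene and per RefSeq promoter, per the file headers. Aligner, genome build, promoter window and coverage were not given in the sources used here. Depth behind a level is therefore unknown and no counting interval is given. The libraries listed 10358 to 10838 (short) and 7278 to 8108 (long) genes. Fractions were turned into percent. The gene value equalled the mean of its promoters within 0.005 points, and each of the 9 genes has 1 listed promoter.

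Genes listed in all 6 libraries of a fraction were compared between 3 induced and 3 control mice with limma 3.58.1 (lmFit, eBayes) in R 4.3.3, with Benjamini-Hochberg adjustment over all genes and a threshold of 0.05. Unless another fit or omitted library is named, every adjusted p is from this fit. The fractions were compared as an interaction term, each mouse being a random block (consensus correlation 0.0674). The procedure was tested on simulated data in which both groups had the spread of the control libraries. It therefore does not cover genes with a larger spread in induced mice, such as long-fragment Gli2 (SD 2.27 in control and 19.9 in induced mice). Python 3.11.15 with pandas 2.3.3 and matplotlib 3.10.9 was used for summaries and plots.

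The members and lists were chosen with earlier results of these data known. Named were the 9 members, the called genes of reception and transduction, the 4 largest differences per list and fraction, and the 3 most alike genes per member with values in all 12 libraries; 1 gene that this rule names is not reported here, and other names are said to be chosen later. Alternatives were the logit and arcsine scales, looser and stricter filters, a trended prior, promoter values, a replicate block, a joint fit and omission of each library. Centring of libraries was added after seeing the data. Promoter sequences came from RefSeq (GRCm38.p6) and symbols from its gene table of the same assembly, which held 12076 of the 12098 gene IDs.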

Additional observations from a re-analysis of the deposited data

Results flagged for a closer look

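Among long fragments Dhh was at 85.5% and 91.5% in induced mice 2 and 3, above all 3 control values, in libraries outside the tested comparison because induced mouse 1 has no listed value. Shh was at 5.30% in the long-fragment library of induced mouse 2, the only induced value listed, above 0% in both listed control mice.

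At 2 of the 50 other pathway genes with values in all 12 libraries the change differed between the fractions (limma interaction, adjusted p under 0.05), a share near the 4.71% of all 5309 genes and so no result about these genes as a group. Mycn, a growth-promoting transcription factor gene chosen after its values were seen, was at 0.16%, 0.01% and 0% in control mice and at 20.03%, 26.0% and 30.2% in induced mice among short fragments, and at 0% in all 6 long-fragment libraries. Its change was 25.4 points smaller among long fragments, a difference of -25.4 points (adjusted p = 0.000984), and it passed without each mouse in turn. Hhatl rose from 51.9% to 86.6% among short fragments and was at 68.7% and 66.99% among long fragments, a difference of the changes of -36.4 points (adjusted p = 0.0246). That difference did not pass without control mouse 2, induced mouse 2 or induced mouse 3 (adjusted p = 0.104, 0.0800 and 0.0660).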

How the results depend on the processing

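The calls of Dhh, Hhip, Gli2, Gli3 and Smo in the short fraction and of Gli3 in the long fraction were made under every alternative that tested the gene. The count of short-fraction members called was 5 or 6 with any library left out, and 2 of the 4 members tested in the joint fit over both fractions, which tests fewer genes. The count of long-fraction members called was 3 and ranged from 1 to 3 with a library left out (1 without each of the 3 control libraries in turn); for the other pathway genes the ranges were 33 to 38 and 16 to 26, for all genes 2227 to 3029 and 885 to 1528 (885 to 905 without a control library), and for members that differ between the fractions 0 to 0. With a replicate block on the mouse number, 1 member (Gli3), 13 other pathway genes and 652 genes in all were called in the long fraction. Gli1 and Gli2 then had limma adjusted p = 0.0878 and 0.0845, and in the short fraction the 5 members called were the same. Whether equal numbers pair a control with an induced mouse was not settled. Deviations of same-numbered mice correlated at 0.0736, 0.00398 and -0.0498 (short) and 0.00102, 0.0366 and 0.0247 (long). These values cannot exclude a pairing, since most promoters lie near 0 in control mice. The joint fit tested the 5309 genes with values in all 12 libraries and called 1575 of them in the short fraction. The main fit called 2773 of 10027 there. Centring of the libraries, added after seeing the data, shifts the many promoters near 0. It called 5212 genes in the short (2844 higher, 2368 lower) and 3566 in the long fraction (1628 higher, 1938 lower). The change of Ptch1 was then -0.549 points in the short fraction (limma adjusted p = 0.0351) and -0.308 points in the long (adjusted p = 0.272). That of Ihh was -0.508 points in the long fraction (limma adjusted p = 0.00391), which is the shift and not a measured fall. Changes that crossed 0 with a library or mouse left out were those of Ihh in the short fraction (-0.123 to 0.130 points), Ptch1 in the long fraction (-0.0117, without induced mouse 1, to 0.308) and the difference between fractions of Ihh (-0.140 to 0.117) and Gli2 (-14.1 to 0.893, the last without induced mouse 2). Leaving out a control library left 2 controls, and limma pools the spread of both groups, so the induced libraries then weigh more in it. The unknown read depth limits all levels near 0%.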

Other observations

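Other genes of the list, chosen after their values were seen, had unlike control levels in the fractions, a difference that was not tested. Snai1, a zinc finger factor of cell movement, was at 17.4% ± 3.22 in control and 25.7% ± 7.61 in induced mice among short fragments (SD, n = 3, limma adjusted p = 0.318), and at 0.380% ± 0.632 and 28.0% ± 2.26 among long fragments, where it rose (adjusted p = 0.000726). Its change did not differ between the fractions at the threshold (limma interaction, adjusted p = 0.0507). Kif3b, a kinesin subunit that builds cilia, was at 7.61%, 7.38% and 2.70% in control mice and at 0.28%, 0.04% and 0.20% in induced mice among short fragments, a difference of -5.72 points that did not pass (limma adjusted p = 0.0554). It lay under 1% in all 6 long-fragment libraries, and its change did not differ between the fractions at the threshold (limma interaction, adjusted p = 0.0634).

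The X-linked glypican genes Gpc3 and Gpc4 varied widely between control mice. Gpc3 was at 55.6%, 0% and 21.0% in control mice 1, 2 and 3 and at 70.0%, 90.6% and 76.1% in induced mice among short fragments. Gpc4 was at 34.01%, 1.59% and 35.03% and at 54.5%, 56.8% and 48.5%. Control mouse 2 was lowest at both, and neither gene passed (limma adjusted p = 0.0864 and 0.132).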
